A study of Saccharomyces cerevisiae with 6 samples.

Results

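The genes described here keep iron, copper and zinc in balance in budding yeast, Saccharomyces cerevisiae. They are 42 genes for siderophore uptake, metalloreductases, oxidases, metal transporters and the regulators of these, chosen by name for what they encode. The choice was made with earlier results of these data known. Each gene was found by its symbol in the probe-to-gene annotation of the array, which gave 45 probe sets of 9275 that are not controls: 4 for ZRT1 and 1 for each of the other 41 genes. The arrays compared 3 wild-type samples with 3 samples of a strain whose histone H3 carries arginine in place of lysines 4 and 79, called K4,79R below, and the stated aim was a list of genes whose mRNA is affected by the substitution. All cells grew in rich glucose medium, YPD, and were taken in mid-logarithmic growth at an optical density of 0.5 to 0.7. The labels give neither the strain background nor whether the samples of a group were separate cultures, so p-values reflect only the scatter among these arrays, part of which may be technical.

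Yeast takes up metals by systems that are switched on when the metal is scarce. In low iron the activators Aft1 and Aft2 turn on surface reductases, the Fet3 and Ftr1 oxidase and permease pair, and carriers for siderophores, the iron chelators that other microbes release. Mac1 does the same for copper transport and Zap1 for zinc transport, while vacuolar carriers store or release the metals.

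Each value is a MAS5 signal, a linear intensity per probe set. Differences are mutant minus wild type on a log2 scale after an offset of 3.605 was added to each signal, with the moderated standard error of limma, and a probe set was called at a Benjamini-Hochberg adjusted p under 0.05 over all probe sets tested. The offset understates changes of low signals. Median signals were 34.1 to 36.8 in wild type; the mutant had 31.8 on array 1, 42.9 on array 2 and 40.1 on array 3. Mutant array 1 correlated less with the other mutant arrays (at most 0.972 on the log scale) than these did with each other (0.982), and its 3′ to 5′ signal ratio for ACT1, a measure of RNA integrity, was 1.00 against 1.498 to 1.64 on the other arrays. The same ratio for SPT15 was 2.79 and 3.35 on mutant arrays 2 and 3 and between 5.02 and 6.15 on the other arrays. Mutant array 1 was the lowest of the mutant arrays for 63.6% of the tested metal homeostasis probe sets and for 63.2% of all tested probe sets. The deposited values of mutant arrays 1, 2 and 3 carry further constants of 0.922, 1.09 and 1.11. These multiply array 1 down and arrays 2 and 3 up, so the levels above include that scaling. The trimmed mean signal was 115, 136 and 138 on these arrays and 125 on each wild-type array. The part of RNA quality in the results below was not tested, and precision is limited by having 3 arrays a strain.

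Of the 45 probe sets, 44 passed the filter on low signals, and 6 of these, from 4 genes, were called. The zinc transporter gene ZRT1 was higher in 2 of its probe sets and lower in another, the cell wall gene FIT1 and the heme oxygenase gene HMX1 rose, and the siderophore carrier gene ARN2 fell. Of all 7420 probe sets tested 3.11% were called, 2.09% higher (155) and 1.02% lower (76). The 6 make up 13.6% of the metal homeostasis probe sets, with ZRT1 supplying 3 of them. Since the genes were chosen with earlier results of these data known, this share is not independent of the values. The median log2 difference of the 44 was 0.00 (22 positive and 22 negative) beside 0.05 over all probe sets. The split of 4 higher and 2 lower became 5 and 4 with quantile normalization, 3 and 3 with a common median, and 5 and 3 with the further constants on the mutant arrays divided out. In these settings 4.68%, 5.22% and 5.04% of all probe sets were called.

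The calls depended on single arrays, as did those over all probe sets. Leaving out mutant array 1 gave 12 higher and 6 lower, where 14.7% of all probe sets were then higher and 3.72% lower. In that fit the mutant arrays kept, 2 and 3, carry constants of 1.09 and 1.11 that raise them against wild type. It was not repeated with the constants divided out, which limits each result without mutant array 1 given below. Leaving out any other single array, of either strain, left none called, with adjusted p-values of the 6 reaching 0.103 to 0.205. Over all 7420 probe sets these fits called only 8 to 42 higher and 0 to 17 lower, so the loss was not particular to these genes. The sign of each of the 6 stayed as it was.

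**Figure D1:**
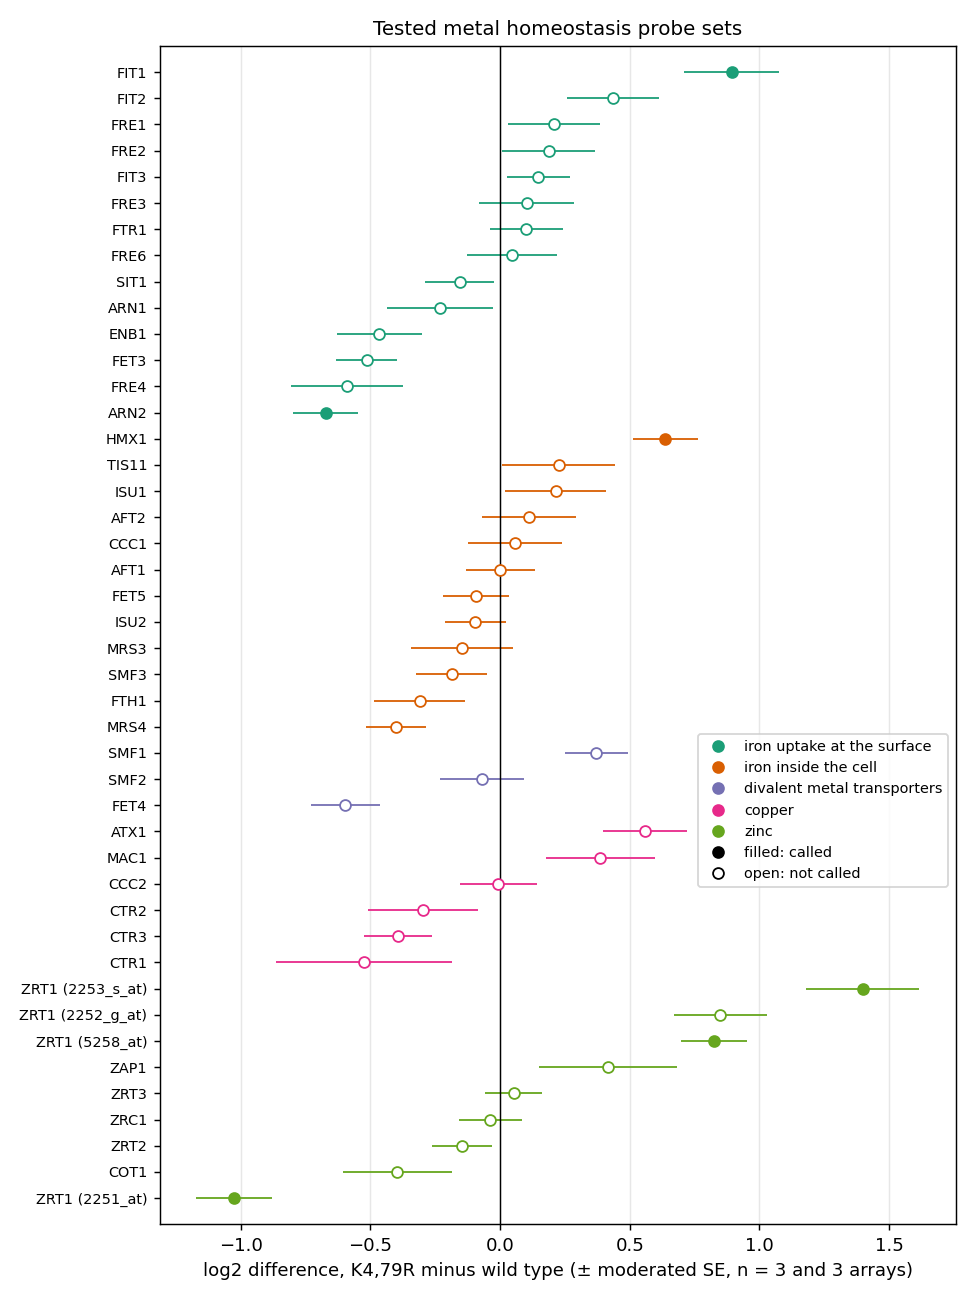
Log2 difference (K4,79R minus wild type, with the moderated SE, 3 arrays each) of the 44 tested probe sets, grouped by the role of their gene; filled points were called and open points were not. The points lie on both sides of 0 in every group, and the ZRT1 probe sets mark both ends of the range, at 1.40 and -1.03.

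ZRT1 (YGL255W) encodes the high-affinity zinc transporter of the plasma membrane and is a classic target of Zap1. Values are given in the order of arrays 1, 2 and 3. The probe set 5258_at read 177, 174 and 202 in wild type and 363, 327 and 298 in the mutant. Every mutant value lay above every wild-type value, and the log2 difference was 0.82 ± 0.13 (SE, n = 3 and 3, limma adjusted p = 0.0195). It missed the threshold with a common median (0.72, adjusted p = 0.0530). The probe set 2253_s_at read 29.8, 27.4 and 33.9 in wild type and 60.3, 98.9 and 105 in the mutant. Mutant array 1 lay well below the other mutant arrays here, yet above all wild-type values, and the difference was 1.40 ± 0.22 (adjusted p = 0.0199). The probe set 2252_g_at read 62.3, 73.4 and 74.1 in wild type and 99.2, 144 and 148 in the mutant. The groups did not overlap, and its difference of 0.85 ± 0.18 lay just outside the threshold (adjusted p = 0.0501). It was called under each of the 3 other scalings, between 0.75 and 0.83, and without mutant array 1 (1.03, adjusted p = 0.0045).

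The remaining ZRT1 probe set, 2251_at, was the dimmest of the 4, below the median signal on every array, and went the other way. It read 22.4, 22.4 and 25.8 in wild type and 9.50, 10.6 and 9.07 in the mutant, without overlap. Its difference was -1.03 ± 0.15 (adjusted p = 0.0160), and it was also called under the 3 other scalings. The annotation lists all 4 probe sets under ZRT1 alone, although the names of 2252_g_at and 2253_s_at carry suffixes that mark probes shared between sequences. The rise of ZRT1 therefore rests on 5258_at as the only probe set without such a suffix that was higher, and the level of ZRT1 is uncertain where its probe sets disagree in sign. Where the probes of each set lie along the gene was not analysed here.

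**Figure D2:**
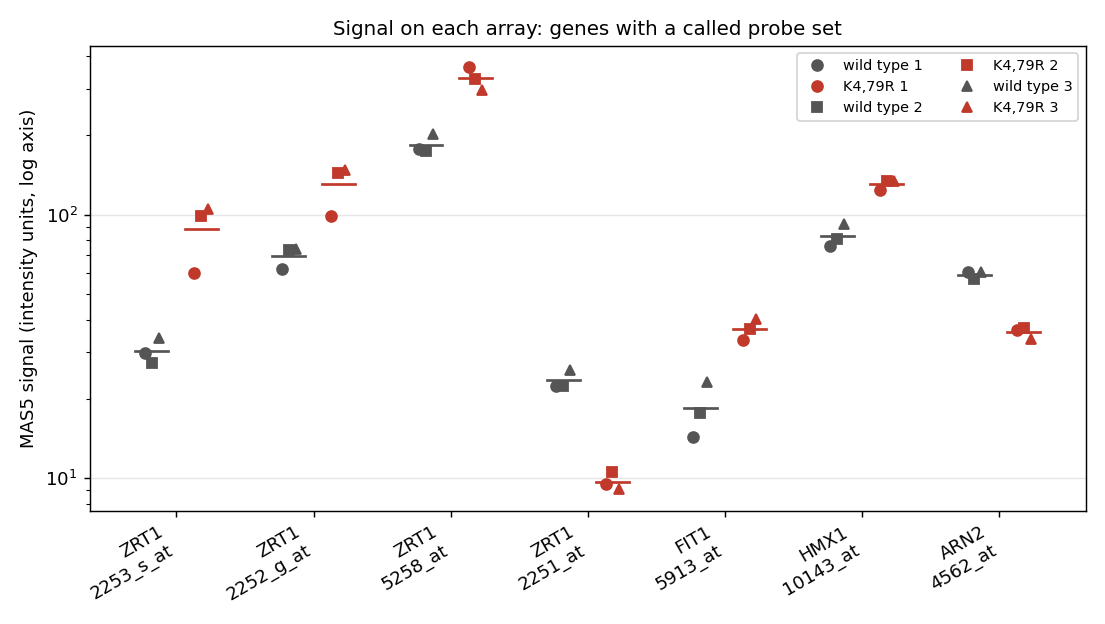
MAS5 signal (log axis) on each wild-type (grey) and K4,79R (red) array for the 4 genes with a called probe set, all 4 ZRT1 probe sets included; symbols mark the array number and lines the group mean. The 3 mutant values lie beyond the 3 wild-type values in each probe set, above them in 5 and below them in ZRT1 2251_at and ARN2.

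No other zinc gene was called. ZAP1 (YJL056C), which encodes the zinc-sensing activator, read 12.2, 8.1 and 10.2 in wild type and 8.58, 18.9 and 18.6 in the mutant. These low signals overlapped through mutant array 1, and the difference of 0.42 ± 0.27 was not called (adjusted p = 0.407). Without mutant array 1 it was 0.71 with an adjusted p of 0.0333. ZRT2 (YLR130C), the low-affinity zinc transporter gene, read 140, 158 and 139.5 in wild type and 136, 131 and 127 in the mutant. The groups stood barely apart, with a difference of -0.15 ± 0.12 (adjusted p = 0.503).

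Vacuolar carriers complete the zinc genes. COT1 (YOR316C), a vacuolar importer of zinc and cobalt, read 136, 126 and 130.5 in wild type and 69.2, 125 and 110.04 in the mutant. The groups did not overlap, but mutant array 1 supplied most of the gap, and the difference of -0.40 ± 0.21 (adjusted p = 0.320) became -0.15 without that array. ZRT3 (YKL175W), which exports zinc from the vacuole, was between 220.4 and 243 in wild type and between 231 and 250.4 in the mutant (0.05 ± 0.11). ZRC1 (YMR243C), the main vacuolar zinc importer, was between 429 and 469.5 in wild type and between 405 and 487 in the mutant (-0.04 ± 0.12). The ranges of the strains overlapped for both carriers.

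Siderophore uptake begins in the cell wall with FIT1, FIT2 and FIT3, mannoproteins that hold siderophore-bound iron near the membrane. FIT1 (YDR534C) read 14.3, 17.7 and 23.2 in wild type and 33.4, 37.0 and 40.04 in the mutant. All mutant values were higher, by a log2 difference of 0.89 ± 0.18 (adjusted p = 0.0462), which missed the threshold when no low signals were filtered out (adjusted p = 0.0573). FIT2 (YOR382W) read 77.1, 73.1 and 83.6 in wild type and 82.1, 130 and 113 in the mutant, overlapping through mutant array 1. Its difference of 0.44 ± 0.18 was not called (adjusted p = 0.221) but was 0.62 without mutant array 1 (adjusted p = 0.0158). FIT3 (YOR383C), the neighbour of FIT2 in the genome, lay between 268 and 307 in wild type and between 290.2 and 341 in the mutant (0.15 ± 0.12, adjusted p = 0.522).

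The carriers that bring whole siderophores into the cell all had negative differences. ARN2 (YHL047C), a carrier for triacetylfusarinine C, read 60.4, 57.0 and 60.4 in wild type and 36.6, 37.2 and 33.7 in the mutant. The arrays of each strain agreed closely with each other, and the difference of -0.67 ± 0.13 was called (adjusted p = 0.0343). ENB1 (YOL158C), the enterobactin carrier, read 344, 364 and 448 in wild type and 335, 241 and 262 in the mutant. Mutant array 1 came close to the lowest wild-type array, and the difference of -0.46 ± 0.16 was not called (adjusted p = 0.166), although it was -0.60 without that array (adjusted p = 0.0256). ARN1 (YHL040C), a ferrichrome carrier, overlapped between the strains (53.2 to 81.5 in wild type, 48.2 to 69.1 in the mutant, -0.23 ± 0.20). So did SIT1 (YEL065W), a ferrioxamine B carrier (202 to 253 in wild type, 183 to 218 in the mutant, -0.16 ± 0.13).

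Reductive iron uptake uses the multicopper oxidase Fet3 and the permease Ftr1, which work as a complex. FET3 (YMR058W) read 1055, 1125 and 1267 in wild type and 791, 836 and 777 in the mutant. Every mutant value was below every wild-type value, and the difference of -0.51 ± 0.12 stood just outside the threshold (adjusted p = 0.0634). It passed with quantile normalization (-0.54, adjusted p = 0.0401), without mutant array 1 (-0.51, adjusted p = 0.0318) and in a fit with 1 probe set per gene (adjusted p = 0.0447). It missed the threshold with a common median (adjusted p = 0.0759) and with the constants divided out (adjusted p = 0.0517). The same held when no low signals were filtered out (adjusted p = 0.0776). Its partner FTR1 (YER145C) lay between 254 and 309.8 in wild type and between 259 and 330.4 in the mutant, a difference of 0.10 ± 0.14 (adjusted p = 0.719). The difference between these partners was not itself tested.

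The metalloreductases, which reduce ferric iron or siderophore-bound iron before uptake, included no called gene. FRE4 (YNR060W), which acts on siderophore-bound iron, read 22.9, 26.4 and 31.6 in wild type and 11.5, 19.7 and 19.7 in the mutant. The strains did not overlap, and mutant array 1 was the lowest (-0.59 ± 0.22, adjusted p = 0.182). FRE1 (YLR214W), the main ferric and cupric reductase of the surface, read 121, 118 and 118 in wild type and 104, 155 and 163 in the mutant. Mutant array 1 lay below the wild-type values and the other mutant arrays above them, giving 0.21 ± 0.18 with all arrays (adjusted p = 0.540) and 0.41 without mutant array 1 (adjusted p = 0.0281). FRE2, FRE3 and FRE6, the last a vacuolar reductase, overlapped between the strains, with differences of 0.19, 0.10 and 0.05. FRE5 (YOR384W) was the member that the filter on low signals left out, with 0.1 to 2.3 in wild type and 1.31 to 5.64 in the mutant.

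Inside the cell, HMX1 (YLR205C) encodes the heme oxygenase that frees iron from heme and is an Aft1 target. It read 75.8, 80.6 and 92.4 in wild type and 124, 134 and 134 in the mutant. The groups were well separated, and the rise of 0.64 ± 0.13 was called (adjusted p = 0.0424). The call was lost with a common median (0.54, adjusted p = 0.0768) and when no low signals were filtered out (adjusted p = 0.0510). TIS11 (YLR136C), also known as CTH2, encodes the protein that marks mRNAs of iron-using proteins for decay in low iron. Its signals were low and overlapped (12.5 to 20.5 in wild type, 15.4 to 24.4 in the mutant, 0.23 ± 0.22, adjusted p = 0.585).

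The mitochondrial iron carriers are the related genes MRS3 and MRS4. MRS4 (YKR052C) read 76.9, 80.0 and 79.6 in wild type and 58.6, 59.6 and 58.3 in the mutant. Both groups were tight and did not overlap, and the difference of -0.40 ± 0.12 was not called (adjusted p = 0.111), while it was -0.40 and called without mutant array 1 (adjusted p = 0.0358). MRS3 (YJL133W) read 114, 128 and 111 in wild type and 144, 93.0 and 87.5 in the mutant, with mutant array 1 highest of all (-0.15 ± 0.20). ISU1 (YPL135W), a scaffold on which iron-sulfur clusters are built, read 237, 230.4 and 255 in wild type and 205, 348 and 306 in the mutant (0.22 ± 0.19). Without mutant array 1, which was the lowest, ISU1 differed by 0.44 (adjusted p = 0.0330). Its paralog ISU2 (YOR226C) lay between 178 and 211.5 in wild type and between 177 and 189 in the mutant (-0.10 ± 0.12).

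Vacuolar iron genes overlapped between the strains. FTH1 (YBR207W) and FET5 (YFL041W), the permease and oxidase that release iron from the vacuole, had differences of -0.31 ± 0.18 and -0.09 ± 0.13. FTH1 read 142, 223 and 202 in the mutant against 222 to 247.5 in wild type. SMF3 (YLR034C), a vacuolar iron exporter, had -0.19 ± 0.14, and CCC1 (YLR220W), which loads iron and manganese into the vacuole, 0.06 ± 0.18. Of the low-affinity and manganese transporters of the same metals, FET4 (YMR319C) takes up iron, copper and zinc. It read 66.8, 74.3 and 66.8 in wild type and 40.2, 48.9 and 45.0 in the mutant. The groups did not overlap, and the difference of -0.60 ± 0.13 stood just outside the threshold (adjusted p = 0.0612). It was called under the 3 other scalings, between -0.64 and -0.69, and without mutant array 1 (-0.53, adjusted p = 0.0222). SMF1 (YOL122C), a plasma membrane manganese transporter gene, read 73.9, 64.9 and 65.9 in wild type and 85.0, 93.7 and 89.1 in the mutant, all higher (0.37 ± 0.12, adjusted p = 0.145), and was called without mutant array 1 (0.41, adjusted p = 0.0448). SMF2 (YHR050W), its relative in internal vesicles, lay between 157 and 229 in wild type and between 171 and 204 in the mutant (-0.07 ± 0.16).

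Neither iron regulator was called. AFT1 (YGL071W) read 55.7, 49.0 and 55.6 in wild type and 57.8, 53.0 and 49.7 in the mutant, a difference of 0.00 ± 0.13 (adjusted p = 0.996). AFT2 (YPL202C) read 23.4, 25.1 and 27.4 in wild type and 21.2, 32.7 and 30.1 in the mutant, with mutant array 1 below and the other mutant arrays above the wild type (0.11 ± 0.18, adjusted p = 0.762). The signs of these small differences turned with the scaling of the arrays. Both proteins are known to be controlled by an iron-sulfur signal from the mitochondria, apart from any change in their mRNA.

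No copper gene was called. MAC1 (YMR021C), the copper-sensing activator gene, read 32.6, 36.9 and 31.6 in wild type and 32.7, 59.3 and 46.8 in the mutant. It overlapped through mutant array 1 (0.39 ± 0.21, adjusted p = 0.334) and differed by 0.60 without that array (adjusted p = 0.0314). CTR1 (YPR124W), the main high-affinity copper transporter gene and a Mac1 target, read 229, 200.1 and 202 in wild type and 76.4, 195 and 203 in the mutant. A single low value on mutant array 1 made most of its difference of -0.52 ± 0.34 (adjusted p = 0.415), which was -0.08 without it.

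CTR3 (YLR411W), which encodes another high-affinity copper transporter, read 33.8, 33.9 and 32.0 in wild type and 23.5, 24.2 and 25.7 in the mutant. The groups were tight and apart, and the difference of -0.39 ± 0.13 was not called (adjusted p = 0.148). ATX1 (YNL259C), the chaperone that carries copper to the Golgi, read 101, 111 and 105 in wild type and 124, 173 and 181 in the mutant. All mutant values were higher (0.56 ± 0.16, adjusted p = 0.113), and without mutant array 1 the difference was 0.73 (adjusted p = 0.0067). CCC2 (YDR270W), the Golgi copper pump that receives copper from Atx1 and loads Fet3, lay between 94.0 and 104 in wild type and between 84.6 and 118 in the mutant (-0.01 ± 0.15). CTR2 (YHR175W), the vacuolar copper transporter gene, ranged from 178 to 280.3 in wild type and from 156 to 234 in the mutant (-0.30 ± 0.21).

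**Figure D3:**
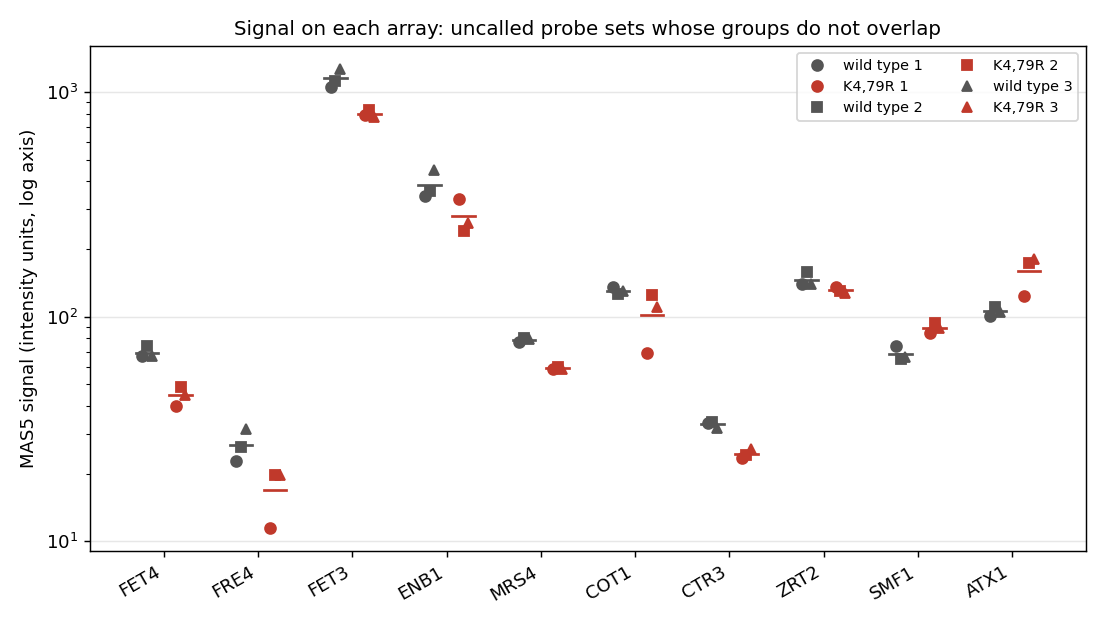
MAS5 signal (log axis) on each array for the 10 genes other than ZRT1 that were not called although their 3 mutant values (red) all lay beyond the 3 wild-type values (grey); lines mark the group means. SMF1 and ATX1 are higher in the mutant and the other 8 lower, and mutant array 1 (red circle) stands apart in FRE4, COT1, ENB1 and ATX1.

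Across the 44 probe sets the mutant values lay wholly above the wild-type values in 7 and wholly below them in 10. Over all tested probe sets such separation was found for 16.1% above and 11.5% below, 27.6% together. It was found for 38.6% of the metal homeostasis probe sets, which were chosen with earlier results of these data known. The 27 that were neither called nor separated had differences from -0.52 to 0.44. The separated ones held both directions in each role: FIT1 above and ARN2, FRE4, FET3 and ENB1 below in iron uptake, HMX1 above and MRS4 below in internal iron handling, ATX1 above and CTR3 below in copper.

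Many of these genes lie near chromosome ends, regions where methylated H3 is known to bear on silencing. In the gene order of the RefSeq table for assembly R64, 5 of the 42 (11.9%) are among the 10 outermost protein-coding genes of a chromosome end, against 5.33% of all ordered genes: FRE2, ARN2, FET4, FIT1 and ZRT1. They include 3 of the 4 genes with a called probe set, and HMX1 is the exception. ZRT1 ranks 10 from its end and so lies at the edge of this cutoff, and the comparison by position was not among the planned results. Among the 8 tested probe sets of these 5 genes, 3 were higher and 2 lower, all from ZRT1, FIT1 and ARN2, with ZRT1 in both directions. Of the 212 tested single-gene probe sets of all outermost genes, 13 were higher and 13 lower, 12.3% together. Any part of chromosome position in these differences was not tested. The outermost 20 genes of an end hold 14 of the 42 (33.3%), against 10.7% of all ordered genes. Of the 14, 12 were grouped under iron uptake at the cell surface, the vacuolar reductase gene FRE6 included. FRE3, FIT2, FIT3 and FRE5 sit close together near an end of chromosome XV, FIT2, FIT3 and FRE5 next to each other. FRE5 was not tested, and none of the other 3 was called.

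Other genes of metal metabolism were counted in 7 lists. These were drawn up from general knowledge of the pathways, but with earlier results of these data known, so they are not independent of the values. Together they had 103 tested probe sets from 96 genes, of which 4 rose and none fell (3.88%, beside 3.11% of all probe sets), and 22 (21.4%) had an unadjusted p under 0.05, beside 21.1% of all probe sets. All 4 rises were among 14 genes reported as further targets of Aft1 or Aft2, whose median log2 difference was 0.34 with 12 positive and 2 negative. None of these 4 encodes a protein that transports iron.

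BNA2 (YJR078W), a dioxygenase of the kynurenine pathway to NAD, read 27.3, 30.2 and 35.6 in wild type and 73.4, 88.6 and 73.8 in the mutant. The mutant arrays were all more than 2-fold above the highest wild-type array, and the rise was 1.25 ± 0.15 (adjusted p = 0.00965). ATG41 (YPL250C), formerly ICY2, an autophagy gene, read 100.3, 109 and 86.6 in wild type and 215, 188 and 217 in the mutant, without overlap (1.04 ± 0.13, adjusted p = 0.0113). ECM4 (YKR076W), a glutathione transferase gene, rose by 0.92 ± 0.19 (adjusted p = 0.0468) from between 47.0 and 50.5 to between 69.9 and 113, and ATG34 (YOL083W), a receptor for selective autophagy, by 0.75 ± 0.15 (adjusted p = 0.0401) from between 32.6 and 35.5 to between 51.7 and 67.9. Leaving out single arrays kept BNA2 called in 4 of 6 cases, ATG41 in 3, and ECM4 and ATG34 in 1. The other genes of this list were not called. Among them PRM1 (YNL279W) had a larger difference than ATG34 (0.86 ± 0.20, adjusted p = 0.0642), and its low signals did not overlap between the strains. The biotin importer gene VHT1 was at -0.09 ± 0.12 and CTH1, the paralog of TIS11, at 0.40 ± 0.26.

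In the other 6 lists no probe set was called. The iron sensing list (BOL2, FRA1, GRX3, GRX4, TYW1 and YAP5) had a median of -0.13 over 6 probe sets. Its glutaredoxin genes, which help to pass the mitochondrial iron-sulfur signal to Aft1, were at 0.02 ± 0.13 (GRX3) and -0.24 ± 0.17 (GRX4). Iron-sulfur cluster assembly had a median of 0.02 over 28 probe sets, and heme synthesis and heme-responsive factors 0.06 over 16. Copper handling had a median of 0.12 over 13 probe sets, with the copper chaperone genes COX17 at 0.49 ± 0.11 (adjusted p = 0.0673) and CCS1 at -0.54 ± 0.15 (adjusted p = 0.0962). Manganese and other metals had a median of 0.09 over 11.

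The zinc list, further targets of Zap1 and zinc handling genes, had a median of 0.04 over 15 probe sets. ZPS1 (YOL154W), a Zap1 target that encodes a cell wall protein, read 70.2, 88.4 and 106 in wild type and 142, 122 and 140.5 in the mutant, without overlap (0.61 ± 0.17, adjusted p = 0.102). ADH4 (YGL256W), a zinc-responsive alcohol dehydrogenase gene, is the neighbour of ZRT1. Its probe set 5257_at read 222, 209 and 246 in wild type and 156, 173 and 182 in the mutant. The groups were also apart, in the other direction (-0.39 ± 0.12, adjusted p = 0.129). Neither gene passed the test. The other ADH4 probe set, 2247_at, was left out by the filter on low signals (0.2 to 3.7 in wild type, 2.58 to 4.91 in the mutant).

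**Figure D4:**
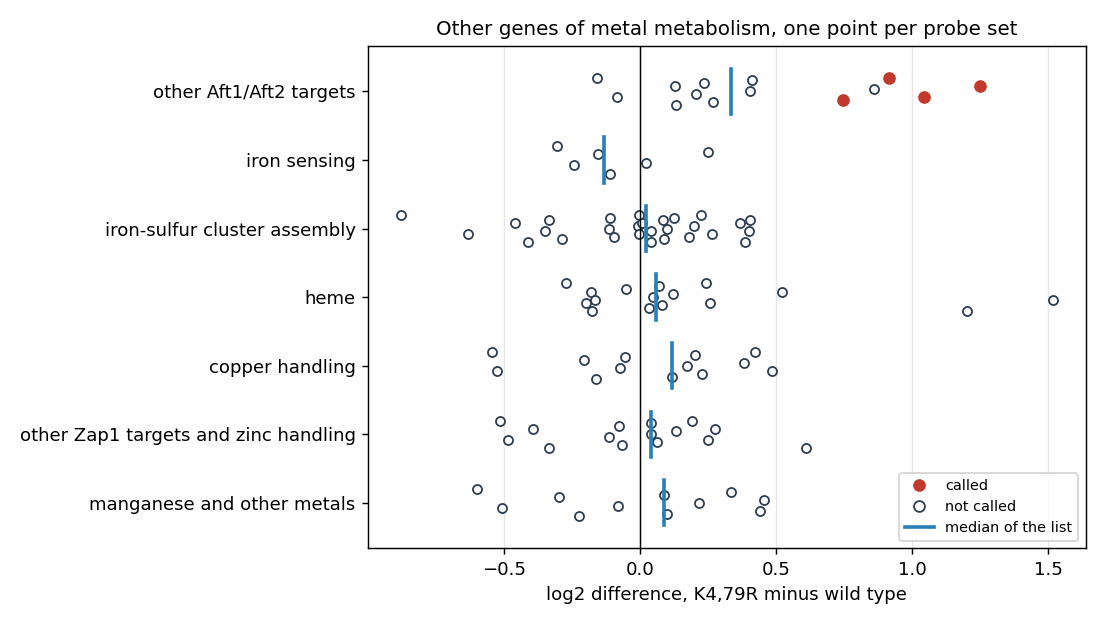
Log2 difference (K4,79R minus wild type) of each tested probe set in the 7 lists of other metal genes; filled red points were called, open points were not, and blue bars mark each list's median. The 4 called points all lie in the list of further Aft1 or Aft2 targets, between 0.75 and 1.25.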

How the data were processed

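Total RNA from 3 wild-type and 3 K4,79R samples was made into biotin-labelled cRNA for 1-colour arrays, per the labels' protocols. The deposited values are intensity on a linear scale, and the submitters' processing notes name MAS5, with no version. The authors multiplied every value of each mutant array by a further constant (0.922, 1.09 and 1.11), as its steps of 0.1 times that constant show; why is not stated in the labels. Values were used as deposited.

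Of 9335 probe sets, 60 are controls and were not used. All 6504 single-gene probe sets matched the RefSeq gene table of assembly R64. The offset of 3.605 is 0.1 of the median array median. A filter removed the dimmest 20% of probe sets by mean over all arrays, and the other 7420 entered limma 3.58.1 (R 4.3.3; lmFit and eBayes with an intensity trend, two-sided, 4 residual degrees of freedom), which was checked on simulated data. With 3 arrays a strain the smallest exact permutation p is 0.1, so no such test was run.

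Members and lists were chosen with earlier results of these data known. By rule, array values are given for called probe sets, the regulators, all ZRT1 probe sets and uncalled probe sets whose groups did not overlap, and up to 4 called genes are named per further list; other genes were named after their values were seen. Deviations of same-numbered samples correlated at -0.18, 0.10 and -0.06, and the numbers were not taken as pairs, although this does not exclude pairing. Alternatives were other scalings, offsets, filters and variance models, a fit by gene, a replicate block and leaving out each array. Promoter sequences and probe positions were not analysed here.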

Additional observations from a re-analysis of the deposited data

How the results depend on the processing

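The offsets and the variance models left the 4 higher and 2 lower metal homeostasis calls as they were. Without a filter on low signals 2 were higher, with the lowest 40% of probe sets left out 1 was lower, and with quantile normalization 4 were lower. The corresponding counts of the other metal genes were 2 higher without the filter, and 1, 3 and 3 lower with quantile normalization, a common median and the constants divided out, where 173, 214 and 170 of all probe sets were lower. Leaving out probe sets with a suffix for shared probes, an alternative chosen after seeing the data, gave 47 lower over all probe sets. With the replicate number as a block 0 metal homeostasis probe sets were called in either direction, 0 of the other metal genes were higher, and 9 of all probe sets were higher and 0 lower. Correlations over 3 arrays a strain cannot decide whether the numbers pair the samples, so no conclusion was drawn from this fit.

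Leaving out single arrays gave 0 to 12 higher and 0 to 6 lower metal homeostasis probe sets, 0 to 17 higher and 0 to 2 lower for the other metal genes, and 8 to 1094 higher and 0 to 276 lower over all probe sets, the highest each time without mutant array 1, with medians of the 44 between -0.05 and 0.02. None of the called differences changed sign. Among uncalled ones, the sign turned with quantile normalization for AFT1 (-0.078), AFT2 (-0.0043), FRE3 (-0.029) and FRE6 (-0.057), with a common median for AFT1 (-0.093), CCC1 (-0.040), FRE6 (-0.046) and ZRT3 (-0.047), and with the constants divided out for AFT1 (-0.046). Across single arrays left out, the sign varied for AFT1 (-0.056 to 0.050), CCC1 (-0.053 to 0.23), CCC2 (-0.13 to 0.10), FRE3 (-0.0068 to 0.21), FRE6 (-0.090 to 0.20), SMF2 (-0.21 to 0.060) and ZRC1 (-0.12 to 0.0095). The cause of these shifts was not tested.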

Other observations

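HAP1 (YLR256W), the heme-responsive activator gene, was read differently by its 3 probe sets. The probe set 10058_at read 41.0 to 49.6 in wild type and 42.1 to 50.4 in the mutant (log2 difference 0.05 ± 0.14). The probe set 3270_f_at read 111, 137.5 and 60.3 in wild type and 121, 382 and 505 in the mutant (1.52 ± 0.52, limma adjusted p = 0.155), and 3493_f_at read 61.4, 66.6 and 38.8 against 38.2, 259 and 210.2 (1.20 ± 0.63, adjusted p = 0.318). Both carry a suffix that marks shared probes, and neither was called with all arrays. In both, mutant arrays 2 and 3 were high and mutant array 1 lay within or below the wild-type values.

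ERV1 (YGR029W), a sulfhydryl oxidase of the mitochondrial intermembrane space listed here with iron-sulfur cluster assembly, had negative differences in all 3 of its probe sets, -0.63 ± 0.19, -0.35 ± 0.21 and -0.46 ± 0.14, none of them called (adjusted p = 0.123, 0.373 and 0.115). These genes were singled out after their values were seen.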
